A study of Mus musculus with 5 samples.

Results

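Biglycan (Bgn), osteoglycin (Ogn) and decorin (Dcn) are 3 genes of the small leucine-rich proteoglycan family. They were picked by symbol, with their ratios on these arrays already known, and each is represented by 1 spotted cDNA probe among 20205 probes, of which 11723 carried 1 gene symbol in the platform annotation. The study compared total RNA of NIH3T3 cells, an immortalised mouse fibroblast line, with that of NIH3T3 cells that constitutively overexpress human HER-2/NEU (ERBB2), a receptor tyrosine kinase, from a cytomegalovirus promoter. Both lines were kept in the same serum-containing medium, and the labels do not say whether the transfected line is 1 clone. Each of 5 two-colour arrays received cDNA of both lines, with arrays A1, A2 and A3 from preparation A and B1 and B2 from preparation B. Erbb2-transfected cDNA carried Cy3 on A1, A2 and B1 and Cy5 on A3 and B2.

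Small leucine-rich proteoglycans are secreted proteins with a core of leucine-rich repeats. Decorin and biglycan carry chondroitin or dermatan sulfate chains, bind fibrillar collagens and shape how fibrils assemble, and both can hold TGF-beta. Osteoglycin, also called mimecan, is a member that also affects collagen fibrils and can carry keratan sulfate. Fibroblasts of connective tissue are a main source of decorin.

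Each value is a log2 ratio with Erbb2-transfected cells above the line and NIH3T3 below it, so a value of -1 is a 2-fold lower level in the transfected cells. The labels do not name the numerator dye. The ratios were read as Cy5 over Cy3, since the labels list Cy5 as channel 1 throughout, so the direction is likely and not settled. Under the opposite reading each value below changes its sign and keeps its size. In bulk RNA, fewer cells of a type and less RNA per cell cannot be told apart.

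All 3 genes had lower ratios in Erbb2-transfected cells on every array that held a value for them, and the sizes differed widely. Bgn was the lowest of the 11835 probes with values on both B1 and B2, at -5.96 ± 1.37 (SD, n = 2 arrays), a mean ratio of 62.3-fold. Ogn had -2.57 ± 0.27 (SD, n = 2 arrays), or 5.92-fold lower. Dcn had -0.74 ± 0.21 (SD, n = 3 arrays), or 1.67-fold lower. Because the genes were chosen with this contrast known, these ratios are a description and were given no test.

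The sequences just upstream of the start sites are shown for Bgn and Ogn, so that the letters can be set beside their ratios. The 250 bases are from RefSeq on GRCm38.p6, plus strand, at chrX:73483351-73483600 for Bgn and chr13:49607765-49608014 for Ogn, and these 2 of the 3 members were matched in the promoter table used. Capitals mark matches on either strand to any of 6 motifs: the TATA box TATAAA, the GC box GGGCGG, the similar purine run GGGAGG, the TEAD motif GGAATG, the SMAD motif CAGAC, and the AP-1 motif TGANTCA. Neighbouring matches can overlap.
Bgn: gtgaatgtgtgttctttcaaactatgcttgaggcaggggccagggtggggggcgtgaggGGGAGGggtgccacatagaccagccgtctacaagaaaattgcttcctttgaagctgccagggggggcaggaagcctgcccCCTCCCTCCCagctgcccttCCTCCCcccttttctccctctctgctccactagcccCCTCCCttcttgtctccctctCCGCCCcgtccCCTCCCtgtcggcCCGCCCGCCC
Ogn: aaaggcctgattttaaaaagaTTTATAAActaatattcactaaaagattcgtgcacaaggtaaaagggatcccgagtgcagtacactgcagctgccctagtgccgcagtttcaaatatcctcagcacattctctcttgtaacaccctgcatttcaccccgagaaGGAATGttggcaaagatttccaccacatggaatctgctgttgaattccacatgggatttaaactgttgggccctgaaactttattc

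The 2 windows differed in base composition. That of Bgn held 64.4% G and C, above 81.6% of 32851 promoter windows of this length, and that of Ogn held 42.0%, above 15.9% of them. The Bgn window had 3 matches to GGGCGG, of which the closest begins 6 bases before the start site, and 6 matches to GGGAGG. Of all windows, 32.7% held GGGCGG and 38.0% held GGGAGG. The Ogn window had 2 overlapping matches to TATAAA, the closer one 227 bases before the start site, and 1 match to GGAATG, 86 bases before it. These motifs were found in 12.4% and 12.6% of all windows. Neither window matched TGANTCA (6.75% of all windows) or CAGAC (42.2%), and none of the 6 motifs was matched in both windows. A match is a run of letters and not a measured binding site.

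Bgn had a value on B1 and B2 and none on A1, A2 or A3. Its ratio was -4.99 on B1 and -6.93 on B2, which are 31.9-fold and 122-fold lower levels. It ranked 6th lowest of 17463 probes on B1 and 2nd lowest of 13109 on B2. Both arrays were thus at the far low end, with the dyes exchanged between them. The arrays differed by 1.93 for Bgn, a gap matched or passed by 1.65% of the 11835 probes, whose median gap was 0.47. The direction was the same in both dye orientations, and the size differed between them by more than for most probes. The intensities behind the ratios were not analysed here, so how far the dimmer colour lay above background is unknown.

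Ogn, like Bgn, had values on B1 and B2 alone. It had -2.38 on B1 and -2.76 on B2, or 5.20-fold and 6.75-fold lower. The arrays lay 0.38 apart, within the median gap of all probes. Ogn had the 34th lowest mean of the 11835 probes, within the lowest 0.287%.

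Dcn was the 1 member with a value in both preparations. It had -0.87 on A3, -0.50 on B1 and -0.86 on B2. The 2 arrays with Erbb2-transfected cDNA in Cy5, 1 from each preparation, lay closest together, and B1 with the other orientation was nearest to 0. These values are 1.83-fold, 1.42-fold and 1.81-fold lower. On these arrays 9.72%, 12.9% and 11.8% of probes had a ratio as low or lower, so Dcn lay in the lower part of the bulk and not at its end.

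**Figure D1:**
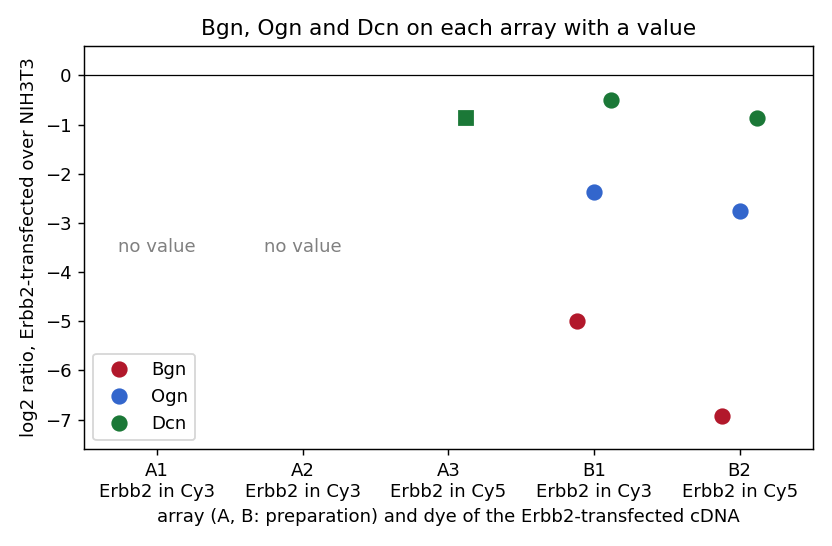
Log2 ratio (vertical axis) of Bgn, Ogn and Dcn on each of the 5 arrays (horizontal axis, with the dye of the Erbb2-transfected cDNA), squares for preparation A and circles for preparation B. All 7 values lie below 0, and Bgn, Ogn and Dcn do not overlap, with Bgn at -4.99 and -6.93, Ogn at -2.38 and -2.76 and Dcn between -0.87 and -0.50.

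The order from lowest to highest was Bgn, Ogn, Dcn on both B1 and B2, and the values of neighbours in this order did not overlap. Within an array, the ratio of Ogn was above that of Bgn by 2.62 on B1 and by 4.17 on B2. From Ogn up to Dcn the gap was 1.88 on B1 and 1.90 on B2, nearly the same on both arrays. Such gaps between ratios show unequal change of these transcripts and say nothing about which of them is more abundant.

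Both preparation B arrays put all 3 genes below 0, as did 27.5% of all 11835 probes, and 2 of the 3 genes, Bgn and Ogn, were 2-fold or more lower on both, as were 1.03% of all probes. Nothing is read from these shares, since the genes were chosen with the ratios known. B1 and B2 agreed only loosely over all probes after turning the dyes, with r = 0.28 across 11835 probes that share these 2 hybridisations. The means of all probes centred on 0.00 with an SD of 0.50.

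**Figure D2:**
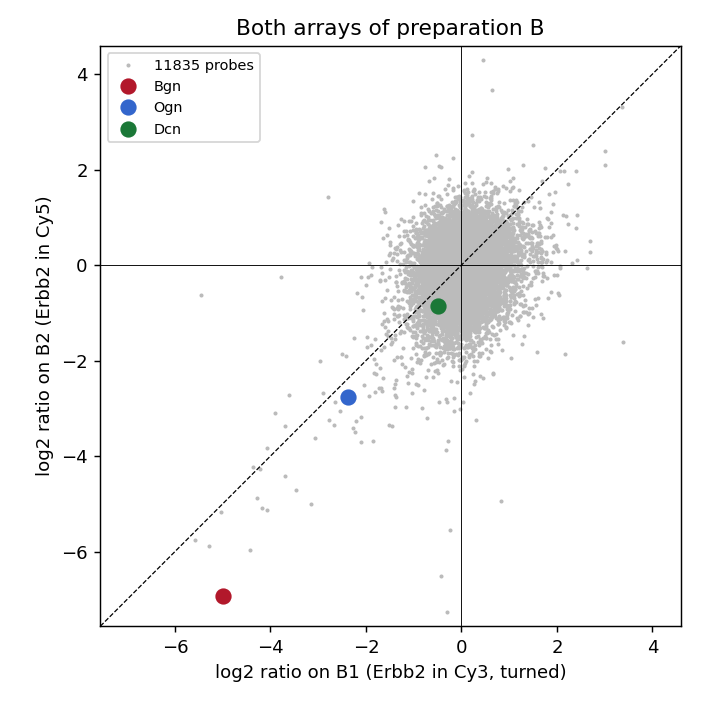
Log2 ratio on B1 (horizontal axis) against B2 (vertical axis) for the 11835 probes with values on both, with Bgn, Ogn and Dcn in colour and the line of equal values dashed. Bgn lies at the far lower left below the line, and Ogn in the sparse lower left tail close to the line. Dcn lies in the lower left part of the central cloud.

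Coverage of the arrays was uneven. Values were held for 26.6% of probes on A1, 56.2% on A2 and 35.9% on A3, against 86.4% on B1 and 64.9% on B2. Bgn and Ogn were among 2166 probes with values on B1 and B2 and on no array of preparation A, where they ranked lowest and 5th lowest. Of the 122 probes that were 2-fold or more lower on B1 and B2, 106 had a value in preparation A. The mean of these in preparation A was below 0 for 104 and 2-fold or more lower for 76. For Bgn and Ogn themselves preparation A gives no value, so their ratios rest on 1 preparation.

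A dye effect and a difference between preparations are separate contrasts from the one that led to these genes. None of the 3 had the values in both orientations of both preparations that the planned tests required. In a fit of features with values on 3 or more arrays of both orientations, added after seeing the data, limma called a dye effect for 15 of 9780 features (0.153%). Dcn, the 1 member in that fit, was not called. Its effect was -0.18 (limma, adjusted p = 0.804, unadjusted p = 0.485). This effect runs from the midpoint of the 2 orientations to the one with Erbb2-transfected cDNA in Cy5. The full difference between orientations is larger than this value. No member met the filter of the test for a preparation difference, and Dcn, with 1 array in preparation A, was not fitted for it. Side by side, Dcn had -0.87 in preparation A (A3 alone) and -0.68 ± 0.25 in preparation B (SD, n = 2 arrays).

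For each member, the 5 genes with the smallest root mean square distance of log2 ratios, over the arrays on which the member had a value, were taken as the most alike. For Bgn, over 2 arrays and 6215 genes, they were Ccn2, Col1a1, Fn1, Fbln5 and Atoh8. Ccn2, a matricellular protein also known as connective tissue growth factor, was nearest, at a distance of 0.79, with -4.43 on B1 and -5.97 on B2. Col1a1, a chain of type I collagen, followed at 0.95, with -5.29 and -5.63. Fn1, fibronectin, lay 1.59 away, and Fbln5 and Atoh8 lay 1.91 and 1.96 away. On B2 Bgn lay below all 5 of these genes. Bgn had the lowest mean on B1 and B2, and distance was taken on the same values. Its nearest genes therefore had to be others with very low ratios, and nothing more is read from the likeness.

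Over the same arrays the genes most like Ogn were Cyp26b1, Gask1b, Fscn1, Timp3 and Ccl9, at distances from 0.30 to 0.45. Cyp26b1, an enzyme that breaks down retinoic acid, had -2.04 on B1 and -2.51 on B2. It was also below 0 on A1, A2 and A3, at -2.31, -1.26 and -2.25. Timp3, an inhibitor of metalloproteinases held in the matrix, had -2.01 and -3.26 on B1 and B2. On A1, A2 and A3, where Ogn had no value, Timp3 had -4.06, -3.20 and -3.47 and Ccl9 had -4.12, -2.44 and -1.53. The likeness to Ogn thus refers to B1 and B2 alone.

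Dcn was compared over 3 arrays with 3568 genes, and its nearest genes were Wdr45, Cox6a2, Col8a1, Vmp1 and Lsm14a, at distances from 0.02 to 0.10. Wdr45 and Vmp1 act in autophagy, Cox6a2 is a subunit of cytochrome c oxidase, and Lsm14a is an RNA-binding protein. Col8a1, a short-chain collagen, had -0.86 on A3, -0.47 on B1 and -0.69 on B2, but 0.54 on A1, where Dcn was not measured. Distances this small are easily reached where many genes have ratios near those of Dcn.

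**Figure D3:**
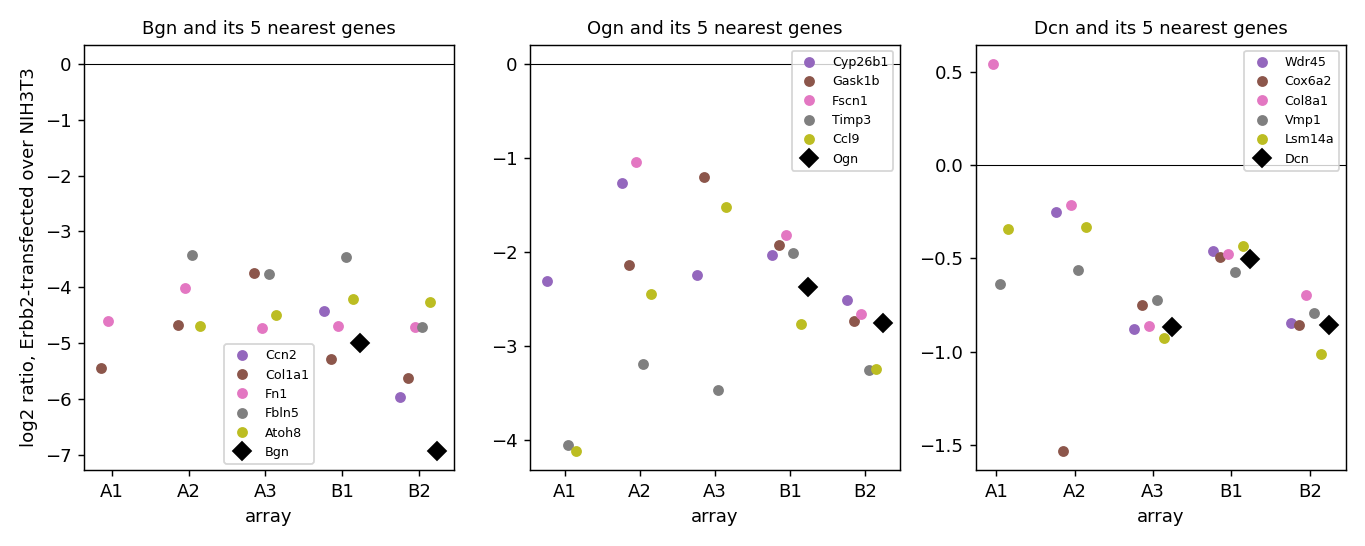
Log2 ratio by array (horizontal axis) for Bgn, Ogn and Dcn (black diamonds) and the 5 genes nearest to each (coloured circles), with a vertical axis of its own in each panel. Bgn lies below all of its nearest genes on B2, whereas Ogn and Dcn lie among theirs.

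The rest of the family was thinly measured. Of 15 other small leucine-rich proteoglycans, 4 had a probe with a value, and 1 of them, Prelp, which links basement membrane to collagen, was tested. Prelp had -0.07, -0.56, -0.71, -0.43 and -0.23 on A1, A2, A3, B1 and B2, below 0 on every array. Its mean of -0.42 ± 0.13 (SD, n = 2 preparations) did not pass limma's test over all 4892 features (adjusted p = 0.247), in which 6.79% of features were called. Chad, chondroadherin of cartilage, had -0.65 on B1 and 0.16 on B2. Fmod, fibromodulin, and Podn, podocan, had values on B1 alone, at -0.33 and 0.24. Chad, Fmod and Podn were named after their values were seen. None of these 4 had a ratio in the range of Bgn or Ogn.

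The pathway lists below were tested by the same fit on 2 preparation means against 0, with 2.25% of all features called higher and 4.54% called lower. Of the 30 list genes tested in all, 8 were lower and 2 higher, and their median was -0.15 against -0.02 for all features tested. The lists were chosen with earlier results of these data known. These counts are therefore a description, and nothing is read from their share beside that of all features. Of these 10, Col1a1, Col1a2, Pcolce and Cd44 also passed after the arrays were scaled to 1 common spread; Mmp2, Adamts1, Tgfbr2, Ltbp3, Igf1r and Gpc4 did not, with limma's adjusted p from 0.0559 (Mmp2) to 0.122 (Igf1r). Whether preparations A and B were separate cultures is not stated, so p-values measure the spread between these samples, which may be technical.

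Among enzymes that build chondroitin and dermatan sulfate chains, the sugar chains of decorin and biglycan, 0 of 4 tested genes passed limma's test, against 1 at an unadjusted p under 0.05 and 1 in limma's fit of the 5 arrays with a dye term. Their median was -0.07. Chpf, a chondroitin polymerising factor, had 1.00, 1.13, 0.78, 0.23 and 0.50 on A1, A2, A3, B1 and B2, above 0 throughout, with a mean of 0.64 ± 0.40 (SD, n = 2; limma, adjusted p = 0.110). It was the gene that passed on 5 arrays (limma, adjusted p = 0.0398). The fit of 5 arrays has no preparation term, so it treats arrays of the same preparation as independent replicates. Fam20b, a xylose kinase of the linkage region, had -0.01 ± 0.27. The lowest mean of the 4 enzymes was -0.18, far from the ratios of Bgn and Ogn. Other genes of this list were outside the test and are named after their values were seen. Ugp2 had -1.07, B4galt7 -0.97, Xylt2 -0.06 and Slc35d1 0.24, each on B1 alone. B3gat3 had -0.07 on B1 and -0.16 on B2.

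Of the other matrix and cell surface proteoglycans, 1 of 5 tested rose and the other 4 did not pass. Gpc4, a glypican that carries heparan sulfate at the cell surface, rose by 1.04 ± 0.39 (SD, n = 2; limma, adjusted p = 0.0166), with 1.23 on A2, 0.31 on A3, 1.20 on B1 and 1.44 on B2. Cspg4 (NG2) and Gpc6 had 0.48 and 0.25 and went both ways between arrays. Acan, the large cartilage proteoglycan aggrecan, was outside the test and is named after its values were seen. Its ratios were -1.35 on B1, -1.12 on B2 and -0.98 on A2. The rest of this list outside the test, also named after their values were seen, went both ways. On B1 Bcan had 0.33, Agrn 0.31, Prg4 0.34, Sdc3 0.03, Cspg5 -0.07 and Col18a1 -0.51. Bcan, Agrn, Sdc3 and Cspg5 had the other sign on another array. Col18a1 had -1.14 on A2. Sdc2 had -1.05 on B2 alone and Spock2 -0.54 on A1 alone.

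Of 5 tested collagens that bind or are organised with small leucine-rich proteoglycans, 2 fell and 3 did not pass. The type I collagen genes Col1a1 and Col1a2 fell, with log2 ratios of -4.93 ± 0.75 and -3.97 ± 0.14 (SD, n = 2). Col5a2, a chain of type V collagen of the fibril core, was outside the test and named after its values were seen, at -3.61 on B1 and -2.72 on B2. Like Bgn and Ogn, it had no value in preparation A. The other untested collagens, also named after their values were seen, were not as low. On B1 Col2a1 had -0.73, Col11a2 -0.76, Col12a1 -0.25, Col14a1 -0.16 and Col5a3, also a type V chain, 0.50. On B2 Col2a1 had 0.01, Col11a2 -0.25 and Col12a1 -0.02. On A3 Col12a1 had 0.72. Col3a1, also a fibrillar collagen, had 0.51 ± 0.99, from -0.64 on B2 to 2.70 on A1. Col6a1, a chain of microfibrillar type VI collagen, which biglycan and decorin bind, had -2.01, -1.72 and -1.83 in preparation A but -0.24 and -0.07 in preparation B. It did not pass over the 2 preparations (limma, adjusted p = 0.0941), but it did on 5 arrays with a dye term (limma, adjusted p = 0.0359). That fit counts each array as a replicate and has no preparation term, while the ratios of Col6a1 differed by preparation.

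Of 4 tested genes that process collagen propeptides and proteoglycan cores, 3 fell and 1 did not pass. Pcolce, which speeds the removal of the collagen propeptide, had -1.83 ± 0.43, Mmp2, a gelatinase, -1.02 ± 0.16, and Adamts1, a protease of large proteoglycans, -0.96 ± 0.28 (SD, n = 2). Bmp1, the protease that cuts the propeptides of procollagen and of biglycan, had a probe but no value on any array. Mmp2 did not pass without A3 (limma, adjusted p = 0.107) or without B2 (0.0676), nor Adamts1 without A3 (0.17) or B1 (0.167). A3, B1 and B2 are each the only array of their dye orientation in their preparation. Leaving 1 of them out, here and below, thus also leaves the dyes unbalanced and changes the features tested.

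In the list of TGF-beta and BMP ligands, receptors and signal carriers, which decorin and biglycan can bind or modulate, 2 of 6 tested fell and 4 did not pass. Tgfbr2, the type II receptor of TGF-beta, had -0.31 on A2, -1.04 on A3, -1.09 on B1 and -2.25 on B2 and fell by 1.17 ± 0.70. Ltbp3, which binds latent TGF-beta, fell by 0.87 ± 0.20. Tgfbr2 did not pass without A3 (limma, adjusted p = 0.134) or B2 (0.0606), nor Ltbp3 without A3 (0.172) or B1 (0.197). Smad4 and Smad5, which carry signals of this family to the nucleus, had 0.01 ± 0.22 and 0.23 ± 0.07. Ccn2, the nearest gene to Bgn and a target of TGF-beta, was outside the test.

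Of 5 tested receptors that small leucine-rich proteoglycans are known to bind, 1 rose, 1 fell and 3 did not pass. Cd44, a hyaluronan receptor, rose by 1.37 ± 0.34 (SD, n = 2), with every array between 1.10 and 2.20. Igf1r, the receptor of insulin-like growth factor I, fell by 0.85 ± 0.46 (limma, adjusted p = 0.0479), at -0.76, -0.45, -0.44, -0.64 and -1.71 on A1, A2, A3, B1 and B2, and did not pass without A3 (adjusted p = 0.122) or B2 (0.198). Itgb1, the integrin beta-1 subunit, and P2rx4, an ATP-gated channel, had -0.40 and -0.44 and did not pass. For Igf1r the ratio on B2 stood well below those of the other arrays.

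**Figure D4:**
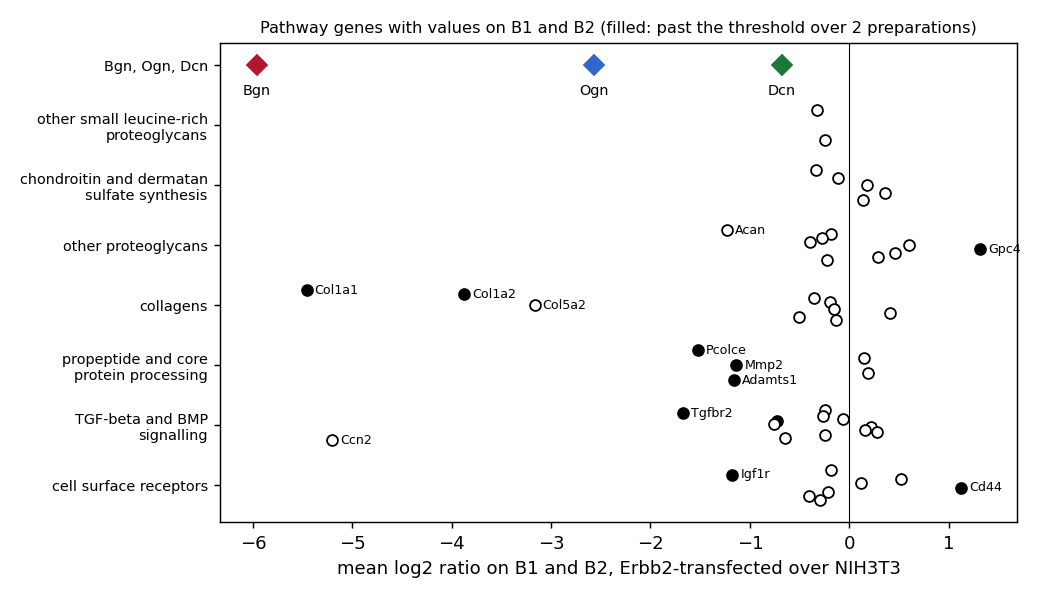
Mean log2 ratio on B1 and B2 (horizontal axis) of Bgn, Ogn and Dcn (diamonds) and of the genes of each pathway list with values on both arrays (circles, filled where the gene passed limma's test over both preparations). Col1a1, Ccn2, Col1a2 and Col5a2 are the list genes below Ogn, and enzymes of chain synthesis lie near 0.

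Both lines are fibroblasts by their labels, and the values, being ratios, show whether a marker differs and not whether it is present. Of 13 fibroblast markers, 10 had values on B1 and B2, and 2 of them, Col1a1 and Col1a2, were 2-fold or more lower on both, with a median over the 10 of -0.14. Markers of epithelium (2 measured on both arrays), endothelium (1), macrophages and leukocytes (1), adipocytes (1) and skeletal muscle (3) had means between -0.16 and 0.28 on these arrays. Of 4 cartilage and bone markers, Acan was 2-fold or more lower and Sox9, a transcription factor of cartilage, 2-fold or more higher on both. The part of any other cell type in the ratios of Bgn, Ogn and Dcn was not tested.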

How the data were processed

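The 5 columns hold log2 ratios that the authors deposited. Per the labels, arrays were scanned with GenePix and read with GenePix Pro 3.0, background was subtracted from mean intensities, and each array was scaled to a median ratio of 1. The reason for empty values was not stated there. Base 2 follows from the values: on A2, 58.8% match an offset plus the base 2 logarithm of a fraction whose terms are whole and at most 300 (tolerance 6e-07), against 2.48% with natural logarithms; the share was lowest on B1 (16.5% against 2.63%) and was 37.3% against 2.35% on B2. Arrays of opposite dyes correlated at r from -0.54 to -0.17 as deposited, so values of A1, A2 and B1 were turned.

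Where a gene had several probes, their mean was taken. Orientations were averaged within a preparation, and the 4892 features with both orientations in both preparations were tested against 0 with limma 3.58.1 (R 4.3.3; Benjamini-Hochberg, threshold 0.05; 1 residual and 10.2 prior degrees of freedom). Dye effects used the 5 arrays. Tested on simulated data of 4892 features, the comparison of cell lines recovered 79.1% of changes of 2 and 4.8% of changes of 1 on the log2 scale. The simulated noise was normal and independent between arrays, with no part shared by a preparation or a dye. Recovery in the real data may therefore differ. Precision is limited by there being 5 arrays.

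The members and lists were chosen with earlier results of these data known. Named by rule are the members, list genes past the threshold, up to 2 others per list with values on all arrays, and the 5 genes nearest each member. Some list genes outside the test were named beyond this rule, after their values were seen, as stated where they appear. Cell type markers, chromosomal neighbours and Bmp1, which had no value, were also named outside it. Alternatives covered centring, scaling, quantile normalization, probe choice, averaging, missing values, the unit of replication and leaving out each array. Figures used matplotlib 3.10.9.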

Additional observations from a re-analysis of the deposited data

Results flagged for a closer look

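For 2 of the 35 genes named from the lists or as nearest genes, 1 array stood apart from the others; chance does this in about 1 in 20 genes. For Fn1 array A2 gave -4.01, while the others ranged from -4.72 to -4.61. Igf1r had -1.71 on B2 against -0.76 to -0.44. Bgn, Ogn and Dcn have too few values for this check. So do Ccn2 and Fscn1, which are counted among the 35 genes but could not be flagged.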

How the results depend on the processing

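Bgn, Ogn and Dcn stayed below 0 under every alternative run, which is a description, since they were chosen with these ratios known. Ogn moved by more than its SD to -2.84 when arrays were scaled to 1 common spread and to -3.30 after quantile normalization. Leaving out 1 array at a time gave -6.93 to -4.99 for Bgn, -2.76 to -2.38 for Ogn and -0.86 to -0.68 for Dcn. For Bgn and Ogn these limits are the values on B2 and B1 themselves. Leaving out A1, A2 or A3, where Bgn and Ogn have no value, could not change them. Nor could leaving out A1 or A2 change Dcn. The 332 features called of 4892 tested became 124 after equal scaling (24.2% higher) and 193 after quantile normalization. They became 149 of 11817 tested with 1 value or more in each preparation. When 1 array was left out, 198 to 498 were called, with 2920 to 8074 features tested. Counts from unlike numbers of tested features are not directly comparable. The share of higher calls, 33.1%, was 19.4% without B1 and 42.9% without B2; if Cy3 was the numerator, these are shares of lower calls. The 10 list genes called became 4 after equal scaling, 5 after quantile normalization and 5 with 1 value or more in each preparation. They became 6 to 11 when 1 array was left out. Without A2, Gpc4 and Tgfbr2 could not be tested. Of the 10, the call was lost for 5 without A3, 2 without B1 and 3 without B2. None of those tested lost it without A1 or A2. The cause was not tested. The members are single probes, so the choice of probe cannot change them. Settings that leave no member to test give no dye or preparation result for the members. With the repetition number of the labels as a replicate block, 1 feature differed between preparations, as without it, and no member could be fitted. Deviations of A1 and B1 correlated at 0.03 and those of A2 and B2 at -0.37. The deviations of B1 and B2 from their own mean mirror each other. In addition, A2 and B2 carried opposite dye orientations, whereas A1 and B1 had the same one. These correlations therefore cannot decide whether same-numbered arrays share more than a number.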

Other observations

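The genes on either side of the members on the chromosome, within 5 protein-coding genes of the RefSeq gene table, were looked up after the members' values were seen. Omd, Aspn and Ecm2, which are family members next to Ogn, and Lum, Kera and Epyc, next to Dcn, have no probe named for them alone. Near Bgn, Haus7, a subunit of the augmin complex of the spindle, had -0.06 on A2, -0.50 on A3, -0.70 on B1 and -1.34 on B2, whereas Slc6a8, the creatine transporter gene, had 0.32 on A2 and 0.93 on B1. Near Dcn, Nudt4 had -0.63 on B1 and -0.65 on B2, Atp2b1, a calcium pump gene, 0.37 and 0.31, and Ube2n 0.20 and -0.04. Near Ogn, Cenpp had -0.19 on B1 and 0.19 on B2, and Iars, an aminoacyl-tRNA synthetase gene, -0.04 and 0.46. Also near Bgn, Trex2 had -0.65 on B1, and Bcap31 had -0.44, -0.58, -0.51 and -0.29 on A1, A2, A3 and B2. Among the measured neighbours of Bgn, Slc6a8 alone was above 0. Near Dcn, Btg1 had 1.06 on A1, 0.90 on A2 and 0.74 on B1, and Ccer1 0.20 on A1 and 0.49 on A2. On A2 the values were 0.92 for Nudt4, 1.31 for Ube2n, -0.04 for Atp2b1, -1.12 for Cenpp and 1.27 for Iars. Across the members the neighbours thus went both ways, and some changed sign between arrays.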
